A study of Homo sapiens with 6 samples.

Results

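MYC and the genes of the MAX-MXD network were examined in THP-1 cells after knockdown (KD) of the transcription factor NFIC. THP-1 is a monocytic cell line established from an acute myeloid leukemia. The network was taken as 10 genes found by name in the deposited table: MYC, MAX, MXD1, MXD3, MXD4, MXI1, MNT, MGA, MLX and MLXIP, out of 33981 genes listed. All 10 passed the filter on low counts, as did 19182 genes in total. Cells of the control group carried a lentiviral vector with a scrambled shRNA (3 samples), and cells of the other group a vector with an shRNA against NFIC (3 samples). GFP-positive cells were sorted 4 days after infection and their RNA was sequenced in bulk. The study names the shRNA as sh494, so the KD group rests on a single hairpin in a single cell line. Its methods describe the control as a vector with GFP only, whereas its results section and the labels call it scrambled.

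MYC is a transcription factor that drives growth, ribosome production and proliferation. It acts as a dimer with MAX on E-boxes, the DNA motif CACGTG. The MXD proteins (MXD1, MXD3, MXD4 and MXI1), MNT and MGA also pair with MAX and hold the same motif in a repressed state, so that MYC and these antagonists share a common partner. MLX is a relative of MAX that pairs with MLXIP (also called MondoA) and with MLXIPL (ChREBP), factors that respond to glucose, and with some of the MXD proteins. In myeloid cells MYC is known for maintaining proliferation and MXD1 for its rise as cells mature.

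Total counts lay between 20369543 and 24809720 per sample, and 3 counts, taken as the detection limit, corresponded to between 0.122 and 0.146 CPM (read counts relative to library sizes scaled by TMM). Such limits cover counting error only. NFIC, the target of the shRNA, had 911, 1019 and 904 counts in control samples and 399, 518 and 493 in KD samples, so 50.1% of its CPM remained. Scrambled replicate 2 and NFIC KD replicate 3 stood apart from the other samples on the second principal component, at -18.0 and -20.5 against 4.63 to 15.8, and their titles carry the same number, 3. The study's own text lists its controls without a number 3, so this shared number is uncertain. Of the 9 monocytic marker genes examined, all were detected, among them the lysozyme gene LYZ, SPI1 and CSF1R. Their summed level was 584 to 646 FPKM in control samples and 725 to 837 FPKM in KD samples. Singly, however, 3 of the 9 were higher (33.3%, against 29.6% of all genes tested) and 4 lower (44.4%, against 30.3%). The other 2 did not pass the test, and the median log2 fold change was 0.02. The part of these changes in the results for the network was not tested. Of the 7 listed markers of other cell types in the table, those of T cells (CD3D) and red cells (HBB) had at most 3 counts in any sample. Not all were silent, since 3 of the 7 passed the filter on low counts. Of these, 1 was higher and 1 was lower (33.3% each, near the 29.6% and 30.3% of all genes tested), and 1 did not pass the test. The summed level of the 7 was 20.2 to 23.2 FPKM and 30.8 to 35.0 FPKM, most of it from PECAM1, which monocytes also express.

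Across the table, edgeR's quasi-likelihood test called 59.9% of the genes tested, 29.6% as higher and 30.3% as lower in NFIC KD cells at a Benjamini-Hochberg adjusted p under 0.05. Of the 10 network genes 3 were lower, 4 were higher and 3 did not pass the test, so the share called was close to that of genes at large. The CPM ranges of the groups did not overlap for 7 of the 10, against 65.2% of all genes tested. MYC, its partner MAX and MLXIP fell, while the 4 genes that rose, MXD1, MXD4, MXI1 and MGA, all encode MAX-binding antagonists. No gene with an antagonist role fell, and MXD3 and MNT did not pass. Of all genes tested 29.6% were higher, and the antagonists were not tested as a set. MXI1 and MGA rose little (log2 fold change 0.17 each), inside the quartiles of all genes tested (-0.44 to 0.33). They passed in 12 and 9 of 15 alternative analyses. With upper-quartile scaling only 2 network genes were higher, MXD1 and MXD4. Where nothing says that samples came from separate cultures, p-values measure only the spread between these samples. In bulk RNA, fewer cells of a type and less RNA per cell cannot be told apart.

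**Figure D1:**
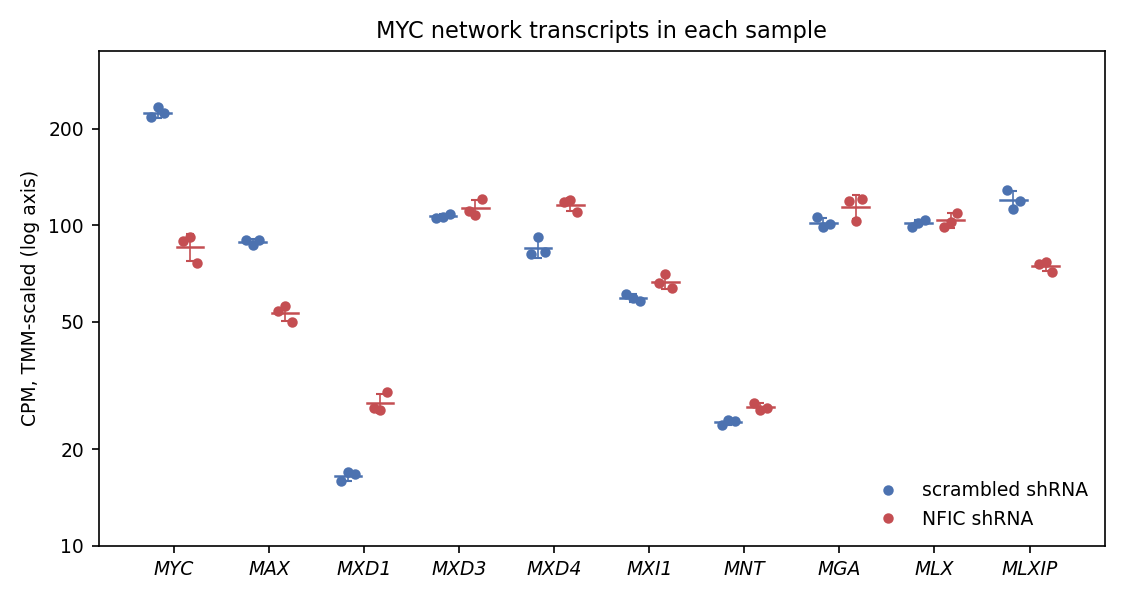
CPM of the 10 network genes (log axis) in the 3 scrambled shRNA samples (blue) and the 3 NFIC shRNA samples (red), with a line at the mean and bars for 1 SD. MYC, MAX and MLXIP sit lower in every NFIC shRNA sample, MXD1, MXD4, MXI1 and MNT sit higher, and the points of MXD3, MGA and MLX overlap.

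MYC (ENSG00000136997, chromosome 8 of GRCh38, 127735434 to 127742951, 3 exons in its canonical transcript) was counted 4699, 5741 and 4778 times in control samples and 1837, 2129 and 1762 times in KD samples. In CPM these were 217, 233 and 223 against 89.1, 91.8 and 76.4. The highest KD sample lay far below the lowest control, and NFIC KD replicate 3 had the lowest MYC level of all samples. The mean fell from 225 ± 8.11 to 85.7 ± 8.23 CPM (SD, n = 3 each), so 38.2% of the control level was left. The log2 fold change was -1.39 (95% interval -1.52 to -1.26, edgeR adjusted p = 2.37e-11). Of all genes tested, 5.23% changed by a larger factor in either direction.

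MAX, the obligate partner, fell as well but by less than MYC. MAX (chromosome 14, 65006174 to 65102695) had 1938, 2138 and 1930 counts in control samples and 1113, 1302 and 1151 in KD samples. Its level went from 88.9 ± 1.75 to 53.3 ± 3.17 CPM (SD, n = 3 each), or 60.0% of control, with no overlap between the groups. The log2 fold change was -0.74 (95% interval -0.86 to -0.61, edgeR adjusted p = 1.09e-08). The intervals of MAX and MYC do not overlap. A table of counts per gene cannot separate the isoforms of MAX, which differ in how they act on MYC.

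MLXIP (chromosome 12, 122078756 to 122147344), the glucose-responsive partner of MLX, fell as well. It was counted 2783, 2757 and 2545 times in control samples and 1560, 1776 and 1652 times in KD samples, with no overlap. The mean went from 120 ± 8.36 to 74.6 ± 2.64 CPM (SD, n = 3 each), with a log2 fold change of -0.68 (95% interval -0.81 to -0.56, edgeR adjusted p = 3.07e-08). MLX itself (chromosome 17, 42567072 to 42573239) gave 99.0, 102 and 104 CPM in control samples and 98.4, 103 and 109 CPM in KD samples. The ranges of MLX overlapped, and its log2 fold change of 0.03 (95% interval -0.09 to 0.14, edgeR adjusted p = 0.701) did not pass. Per length, MLXIP stood at 0.363 ± 0.0322 of MLX in control cells and at 0.222 ± 0.0186 of it in KD cells (ratio of FPKM, SD, n = 3 each).

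Among the antagonists, MXD1 showed the largest rise. MXD1 (chromosome 2, 69897688 to 69942945) had the lowest level per length of the network in control cells, with 343, 419 and 358 counts, and reached 556, 616 and 694 counts after KD. This corresponds to 16.5 ± 0.606 and 27.9 ± 1.93 CPM (SD, n = 3 each), a 1.68-fold rise (log2 fold change 0.75, 95% interval 0.58 to 0.92, edgeR adjusted p = 4.12e-07). NFIC KD replicate 3, lowest for MYC and MAX, was the highest for MXD1. Among KD samples it was also the lowest for MXD4 (110 CPM) and MXI1 (63.7 CPM), which rose, so it did not show the larger change throughout. It was not the sample with the least NFIC, which was NFIC KD replicate 1 with 19.4 CPM of NFIC against 22.3 and 21.4.

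MXD4 (chromosome 4, 2247432 to 2262109) rose from 81.0, 91.9 and 82.3 CPM to 118, 120 and 110 CPM. All KD samples were above all controls, and the log2 fold change was 0.44 (95% interval 0.32 to 0.57, edgeR adjusted p = 5.54e-06). The high control value belonged to scrambled replicate 2. Without that sample and NFIC KD replicate 3 the MXD4 call held, since MXD4 passed the test under all 15 alternatives run.

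MXI1 and MGA rose by small amounts. MXI1 (chromosome 10, 110207605 to 110287365) was at 60.8, 59.1 and 57.9 CPM in control samples and at 66.0, 70.2 and 63.7 CPM in KD samples. The groups did not overlap, and its log2 fold change was 0.17 (95% interval 0.05 to 0.29, edgeR adjusted p = 0.0194). MGA (chromosome 15, 41621134 to 41773081), a very large protein of the repressive PRC1.6 complex, had 106, 98.5 and 100 CPM in controls and 119, 103 and 120 CPM after KD, with NFIC KD replicate 2 inside the control range. Its log2 fold change was 0.17 (95% interval 0.04 to 0.30, edgeR adjusted p = 0.0247). These calls were the least secure of the network, since MXI1 passed in 12 and MGA in 9 of 15 alternatives. Their adjusted p ranged from 0.00361 to 0.111 and from 0.00152 to 0.117. With upper-quartile scaling neither passed (0.111 and 0.117), and MGA missed the threshold without scrambled replicate 2 (0.0839), scrambled replicate 3 (0.0822), NFIC KD replicate 1 (0.110) or NFIC KD replicate 3 (0.0581). MXI1 missed it without scrambled replicate 3 (0.0893) or NFIC KD replicate 2 (0.0788).

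MNT and MXD3 did not pass the test. MNT (chromosome 17, 2384073 to 2401104) was at 23.8, 24.6 and 24.4 CPM against 27.8, 26.4 and 26.9 CPM. Its groups did not overlap, yet the adjusted p was 0.0666 from edgeR, with a log2 fold change of 0.16 (95% interval 0.01 to 0.31, not adjusted for the number of genes). MXD3 (chromosome 5, 177301461 to 177312757), an MXD protein known from cycling cells, was at 105, 106 and 108 CPM and at 111, 108 and 121 CPM. The log2 fold change of MXD3 was 0.09 (95% interval -0.03 to 0.21, edgeR adjusted p = 0.172).

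**Figure D2:**
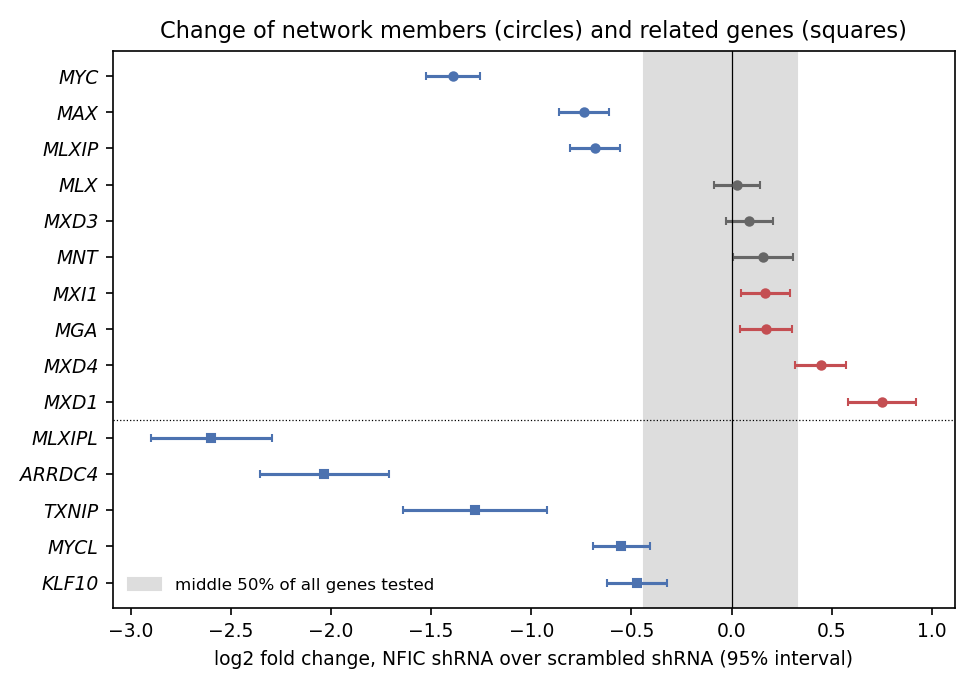
Log2 fold change of NFIC shRNA over scrambled shRNA with its 95% interval for the 10 network genes (circles) and 5 related genes (squares), in blue where lower, red where higher and gray where the adjusted p was 0.05 or more. The gray band, from -0.44 to 0.33, holds the middle 50% of all genes tested, and MYC, MAX, MLXIP, MXD1 and MXD4 lie outside it.

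The spread between replicates was small for all members. The SD was between 1.74% and 6.98% of the mean CPM in the scrambled group and between 2.68% and 9.60% in the KD group, highest for MYC in KD cells. Exons of some members overlap those of other genes, and without a stated strand setting reads in the shared bases cannot be assigned with certainty. MXD3 shares 24.2% of its annotated exonic bases with PRELID1 on the opposite strand and 19.5% with RAB24 on its own strand. On the opposite strand, MLX shares 18.2% with PSMC3IP, MAX 13.1% with FNTB and MNT 12.2% with a lncRNA. MYC shares 3.18% with CASC11, and MXD1 3.73% with SNRNP27 on its own strand.

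Levels of different genes were compared per length, on the deposited FPKM values. In control cells MYC was the highest member at 48.4 ± 1.81 FPKM (SD, n = 3), ahead of MLX (23.6), MXD3 (20.4), MAX (14.03), MXD4 (12.2), MXI1 (9.91), MLXIP (8.54), MGA (5.68), MNT (2.75) and MXD1 (2.57). No neighbours in that order had overlapping ranges. After NFIC KD MYC was in place 3, at 18.7 ± 1.69 FPKM (SD, n = 3), behind MLX (24.2) and MXD3 (21.9). Its range overlapped that of MXD4 (16.8), the next gene down, and the ranges of MLX and MXD3 overlapped as well. MAX dropped to 8.51 FPKM, below MXI1 (11.3), and MXD1 passed MNT (4.38 against 3.11 FPKM).

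MYC made up 46.9%, 48.1% and 47.4% of the summed FPKM of the MAX-binding partners (MYC, the 4 MXD genes, MNT and MGA) in the scrambled samples. In KD samples the share was 23.3%, 24.05% and 20.4%. The shares of the groups lay far apart relative to their spread. The sum of the 6 antagonists rose from 53.5 ± 0.742 to 63.98 ± 1.14 FPKM (SD, n = 3 each), so that the ratio of MYC to its antagonists went from 0.904 ± 0.0213 to 0.292 ± 0.0313. Relative to MAX, MYC went from 3.45 ± 0.188 to 2.19 ± 0.0889, and the antagonists from 3.82 ± 0.123 to 7.54 ± 0.551. These are ratios of transcripts, and protein was not measured in these files. They also depend on the length assigned to each gene. The deposited length of MXD3 is 5154 bases against 1067 in its canonical GENCODE transcript, and that of MAX is 6257 against 2010. With canonical lengths MYC made up 28.0% of the partners in control and 11.6% in KD cells, MXD3 stood above MYC in both groups, and the place of MYC in the order went from 2 to 5. MYC and MAX were then at 59.6 and 43.7 FPKM in control cells and at 23.0 and 26.5 FPKM in KD cells, so that MYC lay below MAX after KD. With these lengths MAX stayed above MXI1 (19.2 FPKM) and MXD1 stayed below MNT (5.02 against 5.49 FPKM) in KD cells. The fold changes of single genes do not depend on length.

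**Figure D3:**
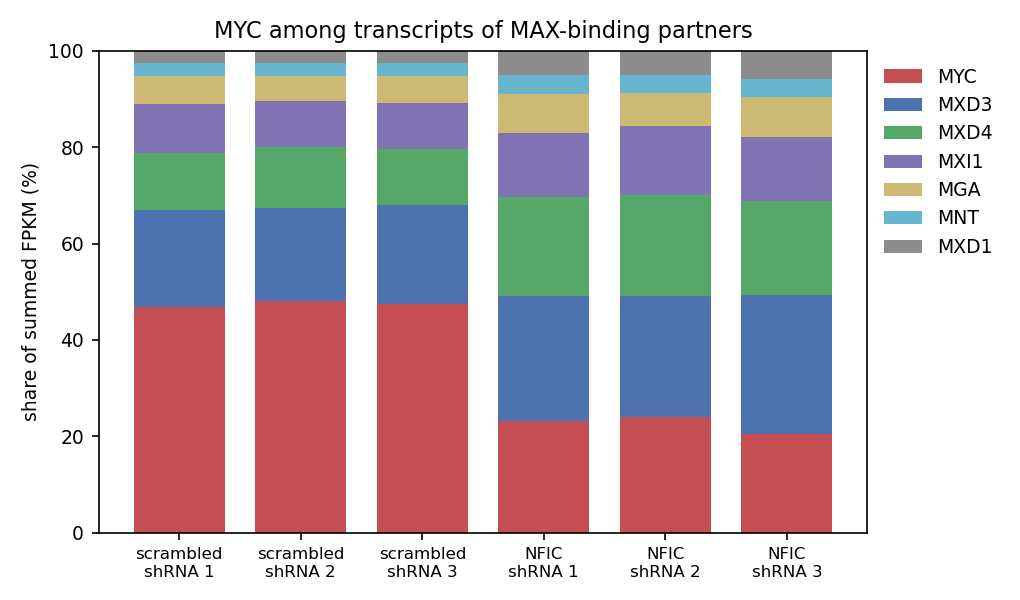
Share of each MAX-binding partner in the summed deposited FPKM of MYC, MXD1, MXD3, MXD4, MXI1, MNT and MGA, in percent, with 1 bar per sample. MYC takes between 46.9% and 48.1% in the scrambled shRNA samples and between 20.4% and 24.05% in the NFIC shRNA samples, and MXD4 takes between 11.7% and 12.6% and between 19.6% and 20.9%.

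Of the other members of these families, MYCL and MLXIPL were tested, and both fell, where 30.3% of all genes tested were lower. MYCL, a paralog of MYC, had 1214, 1206 and 1162 counts in control samples and 721, 879 and 828 in KD samples (log2 fold change -0.55, edgeR adjusted p = 2.19e-06). MLXIPL, the paralog of MLXIP known for driving lipid and glucose genes, dropped from 366, 331 and 359 counts to 56, 67 and 50, or from 15.7 ± 1.96 to 2.59 ± 0.377 CPM (SD, n = 3 each). Its log2 fold change of -2.60 (95% interval -2.90 to -2.30, edgeR adjusted p = 1.37e-10) exceeded that of every network member. Of 3 genes that MLX complexes are known to activate, all 3 were lower, against 30.3% of all genes tested. These 3 were listed with earlier results of these data known, so the count is not independent of them. The thioredoxin-binding protein gene TXNIP had 10704, 9525 and 10448 counts in control samples and 4269, 4921 and 3342 in KD samples (log2 fold change -1.28, edgeR adjusted p = 1.60e-04). Its relative ARRDC4 fell from 43.1 ± 4.67 to 10.5 ± 2.63 CPM (SD, n = 3 each; log2 fold change -2.03, edgeR adjusted p = 2.74e-07), and KLF10 had -0.47 (edgeR adjusted p = 2.28e-05). For TXNIP and ARRDC4 the lowest value again belonged to NFIC KD replicate 3.

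On the MYC locus, 2 of the 3 neighbours tested, both long noncoding RNAs, were lower along with MYC (66.7%, against 30.3% of all genes tested). CASC11, transcribed from the opposite strand next to MYC and sharing 194 exonic bases with it, had 1068, 1362 and 1036 counts in control samples and 438, 469 and 441 in KD samples. Its log2 fold change was -1.34 (edgeR adjusted p = 1.68e-10), close to that of MYC. Without a stated strand setting, the counts of CASC11 and MYC may not be independent. PVT1, downstream of MYC, fell from 16.2 ± 1.497 to 9.25 ± 1.12 CPM (SD, n = 3 each; log2 fold change -0.80, edgeR adjusted p = 6.56e-06). CASC8, farther off, was at 14, 15 and 15 counts against 14, 26 and 12 counts, all low, and did not pass the test (log2 fold change 0.25, edgeR adjusted p = 0.554). POU5F1B had 1, 2 and 0 counts in control samples and none in KD samples and was not tested.

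The genes whose profile over the 6 samples was most like that of MYC were HMGA1, FKBP4, AC005841.1, AGPAT1 and RPL12. Likeness was the root mean square difference between gene-centered log2 CPM values, which was between 0.0403 and 0.0539 for these 5 out of 15241 genes ranked. HMGA1, a chromatin architectural protein, had a log2 fold change of -1.44, and FKBP4, a cochaperone of HSP90, had -1.42. AC005841.1 overlaps FKBP4 on the opposite strand by 285 exonic bases, so these counts may not be independent. AGPAT1, a phospholipid enzyme, and the ribosomal protein gene RPL12 had -1.29 and -1.45, and RPL12 has near-identical copies in the genome. All 5 profiles are dominated by the difference between the groups, as is that of MYC.

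MYC acts on genes that make ribosomes, nucleotides and polyamines, and a list of 56 such targets was written from general knowledge. It is not independent of earlier results on these samples. Of the 56, 41 were lower (73.2%, against 30.3% of all genes tested), 4 were higher (7.14%, against 29.6%) and 11 did not pass the test. The median log2 fold change was -0.46 against -0.01 over all genes tested. SORD, which encodes sorbitol dehydrogenase, fell from 36.5 ± 1.52 to 11.4 ± 0.469 CPM (SD, n = 3 each; log2 fold change -1.68, edgeR adjusted p = 2.71e-11). FBL, the nucleolar methyltransferase fibrillarin, had a log2 fold change of -1.20, and SRM, spermidine synthase, had -1.38. The classic targets did not all follow. CDK4 (log2 fold change -0.05, 95% interval -0.15 to 0.05), ODC1 (-0.09, 95% interval -0.19 to 0.02) and the nucleolin gene NCL (-0.13, 95% interval -0.26 to 0.01) did not pass, with edgeR adjusted p of 0.377, 0.141 and 0.0982. Of the 15 alternatives, CDK4 passed in 0, ODC1 in 1 and NCL in 5. The first 3 of those that rose were RRP12 (0.38), UTP20 (0.57) and MPHOSPH10 (0.24), all of which take part in ribosome assembly. MPHOSPH10 passed in 10 of the 15 alternatives, and the 4 higher targets became 2 with upper-quartile scaling, without scrambled replicate 1 or without NFIC KD replicate 3. CDK4, ODC1 and NCL were chosen for mention after their values were seen.

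**Figure D4:**
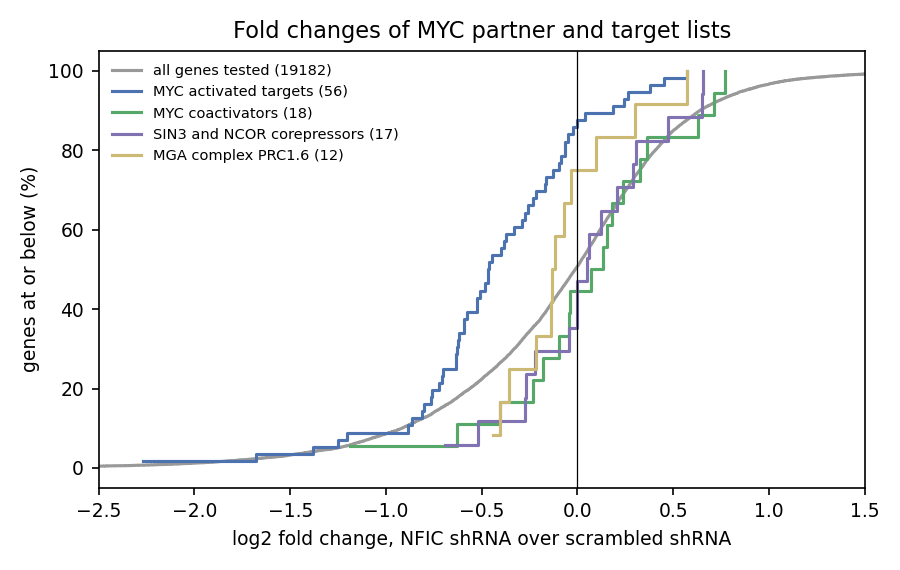
Cumulative share of genes (percent) at or below each log2 fold change of NFIC shRNA over scrambled shRNA, for all 19182 genes tested (gray), 56 MYC activated targets (blue), 18 MYC coactivators (green), 17 SIN3 and NCOR corepressors (purple) and 12 genes of the MGA complex PRC1.6 (yellow). The curve of the targets lies to the left of that of all genes, with a median of -0.46 against -0.01, whereas those of the coactivators and corepressors cross it.

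Of 5 tested genes that MYC is known to repress, 2 were higher and 1 was lower, so the share called was that of genes at large (59.9%). CDKN1A, the inhibitor p21 of cyclin-dependent kinases, rose from 49.3 ± 1.32 to 92.2 ± 5.996 CPM (SD, n = 3 each; log2 fold change 0.90, edgeR adjusted p = 1.46e-09). GADD45A, a stress-response gene, had 0.35 (edgeR adjusted p = 7.64e-04), whereas NDRG1, a differentiation gene, fell with -0.47 (edgeR adjusted p = 2.42e-06). CDKN1C and THBS1 did not pass, at -0.24 and 0.03.

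Among the cofactors, the shares called in the corepressor list were near those of all genes tested (29.6% higher, 30.3% lower, 59.9% in all). Among 17 SIN3 and NCOR corepressor genes, through which the MXD proteins and MNT repress, 5 were higher (29.4%), 5 were lower (29.4%) and 7 did not pass, with a median of 0.05. SIN3A, the scaffold that MXD proteins bind, was at 120 CPM in control and 125 CPM in KD cells (edgeR adjusted p = 0.415), and its relative SIN3B fell slightly with a log2 fold change of -0.22 (edgeR adjusted p = 0.0128). The deacetylase gene HDAC2 (-0.52) and SUDS3 (-0.27) were among the lower genes, and ARID4A (0.65), ARID4B (0.47) and SAP30 (0.65) had the smallest adjusted p of the higher ones. Of 12 genes of PRC1.6, the complex of MGA, 2 were higher (16.7%, against 29.6% of all genes tested) and 5 lower (41.7%, against 30.3%). The remaining 5 did not pass, and the median was -0.13. RYBP (-0.44), WDR5 (-0.41) and CBX1 (-0.36) were lower, and YAF2, the paralog of RYBP, rose with 0.57, as did L3MBTL2 with 0.30. CBX3 (-0.12), also called lower, passed in only 4 of the 15 alternatives. SIN3A, SIN3B and CBX3 were named after their values were seen.

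Of 18 MYC coactivators, 9 were higher (50%, against 29.6% of all genes tested) and 5 lower (27.8%, against 30.3%), with a median of 0.10. KAT2A, the histone acetyltransferase GCN5 that MYC recruits through TRRAP, fell from 77.3 ± 1.498 to 33.9 ± 0.976 CPM (SD, n = 3 each; log2 fold change -1.19, edgeR adjusted p = 4.28e-11). CREBBP (-0.63) and WDR5 (-0.41) were lower as well. The elongation factor genes SUPT5H (0.63) and PAF1 (0.77) and ZBTB17 (0.71), which encodes MIZ1, the partner through which MYC represses, were higher. Among 17 tested genes for turnover of the MYC protein, 7 were higher (41.2%) and 4 lower (23.5%), with a median of 0.20, so the share called was near the 59.9% of all genes tested. FBXW7, which marks MYC for degradation, rose from 35.6 to 55.1 CPM (log2 fold change 0.63), and SKP2, also a ubiquitin ligase subunit for MYC, fell with -0.55. FBXW7 and SKP2 were named after their values were seen. PPP2R5A (0.70), AURKA (1.07) and PLK1 (0.82) had the lowest adjusted p of those higher, and the deubiquitinase genes USP22 (-0.71) and USP28 (-0.88) and the ligase gene TRIM32 (-0.82) of those lower. AURKA and PLK1 also belong to mitosis.

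The E-box was looked for in the 250 bases before and 50 bases after the start of the canonical transcript, since MYC, MXD and MLX dimers all read this motif. Of the 10 network genes, 4 held at least 1 match to CACGTG, which reads the same on both strands, against 9.98% of 13766 protein-coding genes tested. They are MAX, MXD4, MNT and MLX. The last 3 are shown with 30 bases of the GRCh38 reference each, 5′ to 3′ on the strand of the gene, with the match in capitals, since they allow the site to be placed beside the response of each gene.
MXD4, chr4:2262330-2262359, minus strand: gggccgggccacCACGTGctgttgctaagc
MNT, chr17:2401236-2401265, minus strand: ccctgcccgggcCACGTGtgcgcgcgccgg
MLX, chr17:42567038-42567067, plus strand: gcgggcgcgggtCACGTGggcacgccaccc
The matches began 238, 193 and 50 bases before the start site. The 4 genes did not respond alike. MAX fell, MXD4 rose, and MNT and MLX did not pass the test. MXD1, MXI1, MXD3, MGA, MLXIP and MYC had no match in this window, which says nothing of sites elsewhere.

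Over all protein-coding genes with a promoter sequence, 34.9% of the 1374 with an E-box and 32.1% of the 12392 without were lower in NFIC KD cells. The median log2 fold changes were -0.02 and 0.00, at a promoter GC content of 67.3% and 65.7%. Of the MYC activated targets, 17 of 21 with an E-box (81.0%) and 24 of 35 without (68.6%) were lower, with medians of -0.46 and -0.47. These counts are a description without a test. The palindrome that NFI proteins bind, TTGGC and GCCAA with 5 bases between them, and the single site TTGGCA, searched on both strands, were found in none of the 10 promoters, against 0.0363% and 8.34% of the 13766. Both share the letters TTGGC, so a match to the palindrome can also be a match to the single site. At such low shares, the lack of a match in 10 promoters says little of these genes. It says nothing of sites outside the window.

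The shRNA itself was compared with the network transcripts, because a hairpin can act on RNAs other than its target. The target of sh494 in NFIC is given with the 7 bases that would pair with bases 2 to 8 of a guide that spans the whole target in capitals.
sh494 target: gatggacaagtcaCCATTCAa
Across all annotated transcripts of each gene, the fewest mismatches to this target were 7 for MXI1 and MGA and 8 for the other 8 members, against 0 for NFIC. The capital stretch was absent from the canonical transcripts of MYC, MAX and MLXIP, the members that fell. It occurred once in that of MXD1, in its 3' UTR, and MXD1 rose. Of all protein-coding genes tested with an annotated 3' UTR, 12.1% held it there, with a median log2 fold change of 0.04 against -0.01 for the others. Their median 3' UTR length was 3384 bases against 1070 for the others, so the comparison does not separate the site from UTR length. Where the guide is cut from the hairpin was not measured, so the seed may be shifted.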

How the data were processed

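Bulk RNA of 6 samples of sorted THP-1 cells was examined, 3 with scrambled shRNA and 3 with NFIC shRNA, grouped by the sample labels. The authors trimmed reads with Trim Galore, aligned them with STAR (genome GRCh38) and counted them per gene of Ensembl release 96 with featureCounts. No strand setting is stated. The deposited counts are whole and not normalized. The deposited normalized signal is the count over the sample's DESeq2 size factor, and the deposited FPKM values are that signal per kilobase of gene length on a scale common to all samples. The deposited columns of the authors' own comparison (fold changes, errors, p-values) were not used.

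The counts were analyzed with edgeR 4.0.16 in R 4.3.3 (TMM, default low-count filter, robust quasi-likelihood fit, no block). Benjamini-Hochberg adjustment covered all 19182 genes tested, with a threshold of 0.05. Standard errors were taken as the log2 fold change over the square root of F, and 95% intervals from the t distribution of the fit. The fit was tested on simulated data first. CPM used TMM-scaled library sizes, and values are mean ± SD. Positions, exons and promoters came from GENCODE release 44 on GRCh38. DESeq2 1.42.0, other scalings and filters, samples left out and replicate blocks were the alternatives. The canonical transcript length and the removal of scrambled replicate 2 with NFIC shRNA replicate 3 were added after the data were seen. Named genes were the members, NFIC, all genes of the short lists, up to 3 per direction of each longer list by adjusted p, and the 5 nearest to MYC by profile. Genes outside that rule are marked as such, except the marker genes. Members and lists were chosen with earlier results of these data known. MYCN, CCAT1, USP36 and CDKN2B of the lists, and CD3E and MS4A1 of the markers, were not analysed here. Some items are not reported here.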

Additional observations from a re-analysis of the deposited data

How the results depend on the processing

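With 3 samples per group, single members were judged only through the fit over all genes. In the 15 alternatives, MYC, MAX, MLXIP, MXD1 and MXD4 kept their direction and call. The log2 fold change of MYC was between -1.45 and -1.29, that of MAX between -0.79 and -0.69, and that of MXD1 between 0.70 and 0.79. MXD3 passed in none, MNT in 1 (total counts, 0.0425), MXI1 in 12 and MGA in 9. The 4 higher members were 2 with upper-quartile scaling, in which MXI1 and MGA did not pass, and between 2 and 4 when 1 sample was left out (2 without scrambled replicate 3). MLX, never called, changed sign with upper-quartile scaling (-0.031), without NFIC shRNA replicate 3 and without that sample and scrambled replicate 2 (-0.016). With 1 sample left out it lay between -0.012 and 0.065. The cause was not tested. The MYC share of 47.5% in control and 22.6% in KD cells became 51.7% and 25.5% without MNT and MGA, 36.3% and 15.6% from normalized counts not divided by length, and 28.0% and 11.6% with canonical lengths, where MYC was in place 2 and 5 in the order of levels instead of 1 and 3. Lower MYC activated targets numbered 41, and 38 to 42 when 1 sample was left out. Higher ones numbered 4, 2 with upper-quartile scaling, and 2 to 5 when 1 sample was left out. With the replicate number of the labels as a block, 10983 genes were called in place of 11486, and 10 of 10 members kept their call. Deviations of same-numbered samples correlated at 0.0563, -0.0862 and -0.0446 across genes, so the numbers were not taken as pairs, and 1 of 6 samples correlated best with its own number. Paired by the numbers in the titles, with the unmatched samples as a pair, the correlations were 0.0563, 0.145 (scrambled replicate 2 with NFIC shRNA replicate 3) and 0.0267, and that block called 12099 genes. Depth limited CASC8 and POU5F1B, with 26 counts or fewer in every sample.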
